A study of Mus musculus with 11 samples.

Results

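Gene expression was compared for 26 genes of GABA and glycine signalling in the hippocampus of CD and FD F1 mice. The genes were chosen by name, as receptors for GABA and glycine and as genes for the synthesis, transport, anchoring and breakdown of these transmitters and for chloride balance. They are 26 of the 38293 genes in the count tables, of which 36345 were in the GENCODE annotation used to name them. RNA of the hippocampus had been sequenced at 14 weeks of age. CD F1 mice (n = 6, 3 males and 3 females) came from dams on a diet with 2.3 mg folic acid per kg, and FD F1 mice (n = 5, 2 males and 3 females) from dams that received 40 mg per kg for 6 weeks up to mating. Control diet was given to both sets of dams from mating on. All mice were wildtype offspring of 129S6/SvEv dams and C57BL/6J sires. The question put to these genes was whether they differed with the maternal diet, and sex, which crosses diet in the labels, was compared as a second factor.

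GABA is the main inhibitory transmitter of the adult forebrain. It is made from glutamate in interneurons, is loaded into vesicles, and opens the chloride channels of GABA-A receptors, each built of several subunits, or activates the G protein-coupled GABA-B receptor. Glycine opens chloride channels of the same superfamily, mostly in spinal cord and brainstem, and its vesicles are filled by the same transporter. Whether an open chloride channel inhibits a neuron depends on the balance of chloride extrusion and chloride uptake, and this balance shifts towards extrusion as the brain matures.

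Between 11737554 and 44447006 reads per mouse were counted on genes, so that 3 counts corresponded to 0.0675 to 0.256 CPM (read counts scaled to the library total). Counting error was thus small for most members, and 23 of the 26 had at least 10 counts in every mouse. A set of 3 female libraries stood apart from the rest, namely CD female 1, CD female 3 and FD female 3. Reads with several alignments made up 15.1% to 16.0% of the reads in these 3 libraries and 13.7% to 14.5% in the other 8. On the first principal component of all genes with at least 10 counts in every mouse, they lay between 16.3 and 20.4. The other 8 lay between -18.0 and 2.23. Among genes with as many counts, short and long genes differed in opposite directions in these libraries. Against the other 3 females, the median gene with under 2000 bases of exon was 0.15 higher on the log2 scale and the median gene with 10000 bases or more was 0.16 lower. The counts of called members, and the differences of members for which it mattered, are therefore given with and without these 3 libraries, an alternative added after seeing the data, and the part of RNA or library quality in any result was not tested. Markers of hippocampal neurons were present. The 12 dentate granule cell genes summed to 749.8 to 887 CPM in every mouse. Of 16 genes of hypothalamus and brainstem, 7 had too few counts to be tested, and the other 9 summed to 1.91 to 4.80 CPM. Other neighbouring tissue had higher sums, with 162 to 187 CPM for thalamus and habenula genes and 171 to 256 CPM for striatum genes. Choroid plexus genes summed to 33.0 to 95.2 CPM.

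The levels of the members spanned more than 3 orders of magnitude. To compare genes with each other, CPM were divided by the length of all exons of a gene in kilobases, which gives RPKM (mean of 11 mice). Gabbr1, the subunit of the GABA-B receptor that binds GABA, had the highest level at 104.9 RPKM, and its range over mice did not overlap with that of the next gene. Gabra5, a GABA-A alpha subunit known for its place outside synapses of hippocampal pyramidal cells, followed at 85.2 RPKM. Slc12a5 (KCC2), the neuronal chloride extruder, stood at 77.1 RPKM, and the ranges of Gabra5 and Slc12a5 overlapped. Gabbr2, which couples the GABA-B receptor to G proteins, reached 59.9 RPKM, and Gad1, which makes most of the GABA of the brain, reached 52.8 RPKM.

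Below these came Glrb (49.2 RPKM), the glycine receptor beta subunit that binds gephyrin, and Abat (40.3 RPKM), the GABA transaminase that breaks GABA down. Gad2, the synaptic form of glutamate decarboxylase, stood at 38.2 RPKM and Slc6a11 (GAT3), the GABA transporter of astrocytes, at 32.5 RPKM. A run of genes with overlapping neighbours followed, with Gabrb2 at 28.1 RPKM, the scaffold gene Gphn (gephyrin) at 27.7, Gabra4 at 24.6, Gabra3 at 21.4, the vesicular transporter Slc32a1 at 20.1 and Gabra2 at 19.96. Levels then dropped, without overlap, to Gabrd at 9.92 RPKM, the delta subunit of receptors outside synapses, and to Slc12a2 (NKCC1), a chloride importer, at 8.22 RPKM. Slc6a9 (GLYT1), the glial glycine transporter, had 4.97 RPKM. Gabrb1 had 4.67 RPKM, and the lower levels of Glra2 (3.59), Gabrg1 (3.52) and Gabrg3 (2.56) each overlapped with the next higher gene.

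The members Gabrq, Glra3, Gabre and Glra1 were at the lower end. The theta subunit Gabrq had 0.224 RPKM and the glycine receptor subunit Glra3 had 0.204 RPKM, both with counts in every mouse. Gabre, the epsilon subunit, had 0 to 12 counts in a mouse and was at 0 in 1 mouse. Glra1, the main glycine receptor alpha subunit of spinal cord and brainstem, had 0 to 5 counts and was at 0 in 3 mice, so that Glra1 was at the limit of detection at this depth. In all, 18 of 25 neighbouring pairs in the order overlapped in their ranges over mice. The order with coding length in place of exon length had a Spearman correlation of 0.95 with this order over the 26 genes, which share libraries and depth, and the largest move was 5 ranks.

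**Figure D1:**
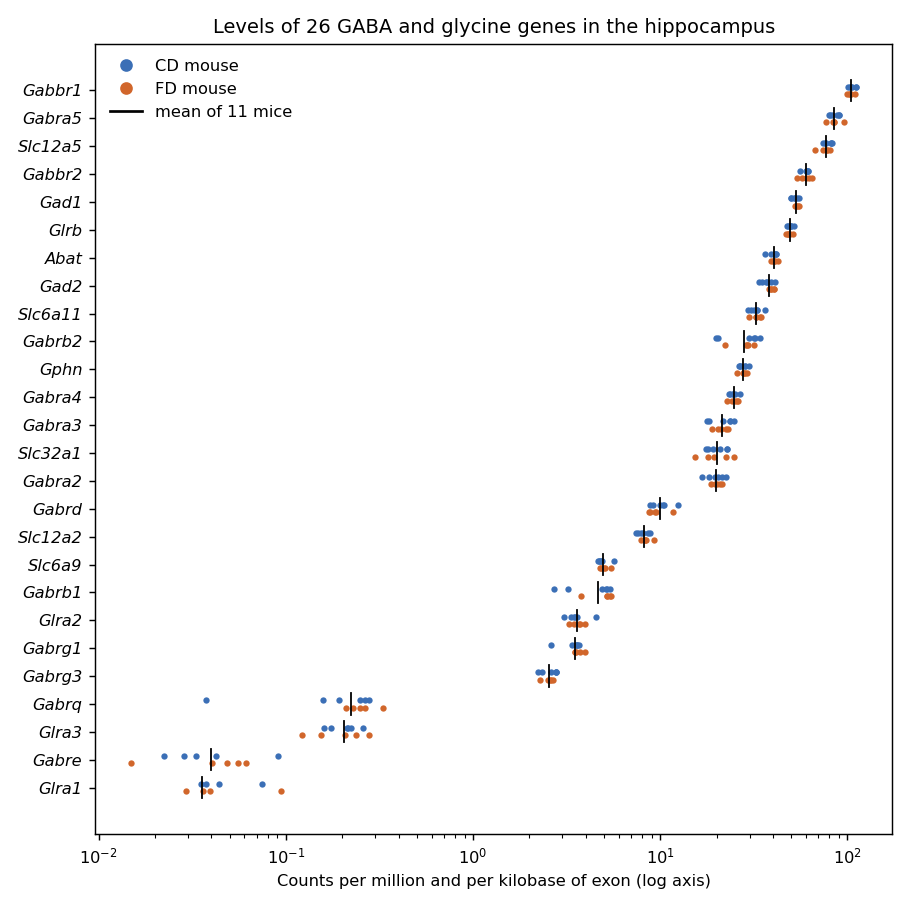
Levels of the 26 genes, in CPM per kilobase of exon (RPKM) on a log axis, with 1 point for each CD and FD mouse and a bar for the mean of 11 mice. Points at 0 (Gabre in 1 mouse and Glra1 in 3) cannot be drawn on this axis, and the points of both diets lie over each other for every gene.

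Several receptor subunit genes lie side by side in the genome (GENCODE annotation of GRCm38), with Gabrg1, Gabra2, Gabra4 and Gabrb1 on chromosome 5, Gabrg3 and Gabra5 on chromosome 7, and Gabre, Gabra3 and Gabrq on chromosome X. Within the group on chromosome X, Gabra3 had 84.1 CPM ± 9.37 (SD, n = 11), Gabrq 1.196 CPM ± 0.412 and Gabre 0.188 CPM ± 0.116. The sequences before the starts of these neighbours are printed here, chosen because they differ in CG dinucleotides, the sites at which folate-derived methyl groups are placed on DNA. Methylation itself was not analysed here. The stretches hold only bases that precede every start listed in the RefSeq table and the gene in GENCODE (RefSeq promoter table, GRCm38.p6), are written 5′ to 3′ on the strand of the gene, and show each CG in capitals. They are chrX:72656920-72657169 on the minus strand for Gabra3 (250 bases), chrX:72274804-72274971 on the minus strand for Gabre (168 bases) and chrX:72824928-72825177 on the plus strand for Gabrq (250 bases).
Gabra3: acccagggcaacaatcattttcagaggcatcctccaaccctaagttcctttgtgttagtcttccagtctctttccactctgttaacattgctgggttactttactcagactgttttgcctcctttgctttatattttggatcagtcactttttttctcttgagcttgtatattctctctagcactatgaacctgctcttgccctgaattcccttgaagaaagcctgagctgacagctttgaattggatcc
Gabre: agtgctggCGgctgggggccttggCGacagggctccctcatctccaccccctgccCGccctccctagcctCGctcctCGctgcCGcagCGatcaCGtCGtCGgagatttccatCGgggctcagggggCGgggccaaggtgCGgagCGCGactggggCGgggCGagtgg
Gabrq: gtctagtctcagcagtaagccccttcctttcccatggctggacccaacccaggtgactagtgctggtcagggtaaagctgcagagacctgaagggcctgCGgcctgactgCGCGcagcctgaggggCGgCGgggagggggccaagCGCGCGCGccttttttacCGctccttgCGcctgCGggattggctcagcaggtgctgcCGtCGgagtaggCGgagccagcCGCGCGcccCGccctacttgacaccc
The stretch of Gabra3 held 0 CG, that of Gabre 17 and that of Gabrq 19. The motif CG reads the same on both strands. Among 32851 promoters in the table, 7.87% had no CG in the 250 bases before the start and the median was 6. Promoters were listed for 22 of the 26 members, 29 in all, and their median was 12 CG, with 37 for Gabbr2 as the highest. Among the other members, the number of CG and the level went together in some and not in others. Gabbr2 and Gphn, with 37 and 34 CG, had 59.9 and 27.7 RPKM, and Gabrg1, with 1 CG, had 3.52 RPKM. Gabra5, however, had 85.2 RPKM with 9 CG, and Gabrb1 had 4.67 RPKM with 18 CG before 1 of its starts. A relation between CG and level over the members was not tested.

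No member passed the test between FD and CD F1 mice. Of all 20589 genes tested, 14 differed at an adjusted p under 0.1 (0.068%), all of them higher in FD mice, and no member was among them (edgeR quasi-likelihood test, Benjamini-Hochberg adjustment). At an unadjusted p under 0.05 there was also no member, against 2.59% of all genes. DESeq2 called 0 members as well, and 18 genes over all. The adjusted p was 1.0 in edgeR for every member. Of the 26, 15 were higher and 11 lower in FD mice, with a median log2 difference of 0.01 beside -0.004 over all genes. The CPM of both diets overlapped for all 26 members, while 0.505% of all genes had groups that did not overlap.

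The precision allowed limits to be set for these mice. Diet was given to the dams and litters are not given. The intervals treat each mouse as independent and may be too narrow if littermates are among them. Among the 23 members with at least 10 counts in every mouse, the log2 difference between FD and CD mice lay between -0.08 (Gabrd) and 0.17 (Gabrb1), with standard errors of 0.04 to 0.20. The median size of the difference was 0.03, compared with 0.05 for all genes with as many counts. The 95% interval lay within 0.5 log2 units of 0 for 23 of the 26 members, and within 0.25 for 18. The remaining 3 were Gabrq, Gabre and Glra1, whose low counts left wide intervals. Gabrq had a log2 difference of 0.26 ± 0.27 (SE), from 3 to 66 counts per mouse. Without the 3 libraries that stood apart, again no member was called and the median difference was -0.0039. These limits shifted with single libraries. The difference of Gabrd was -0.17 without FD female 3 and -0.01 without CD female 1, and that of Gabrb1 was 0.26 without FD female 3 and 0.07 without CD female 3.

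Paired by sex and number in the labels, which leaves out CD male 3, 23 of 20212 genes were called (0.114%) and again 0 members (edgeR, replicate block). At an unadjusted p under 0.05 there were 2 members of 26 in this paired fit, compared with 6.76% of all genes. They were Gabrb1 at 0.27 ± 0.08 (log2, edgeR adjusted p = 0.366) and Gad2 at 0.10 ± 0.05 (edgeR adjusted p = 0.721). In the pair of females with number 1, only the CD mouse is among the 3 libraries, and in the pair with number 3 both mice are.

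**Figure D2:**
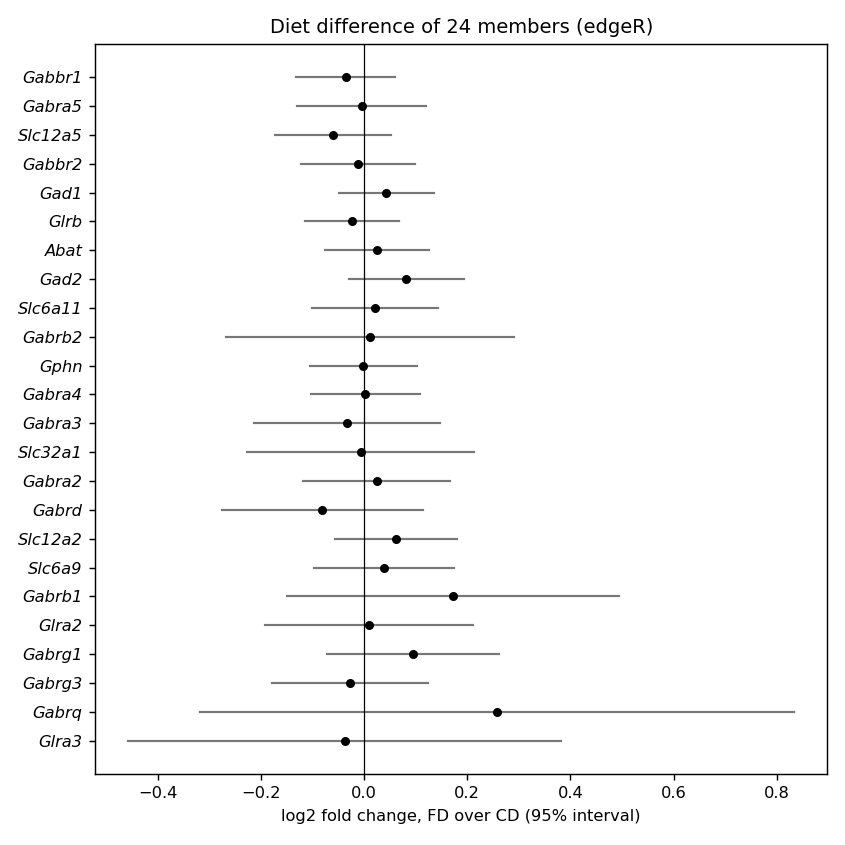
Log2 fold change of FD over CD F1 mice (6 CD, 5 FD) with its 95% interval from edgeR, for the 24 members with more than 20 counts in at least 1 mouse, ordered by level. All 24 intervals include 0, and the widest belong to Gabrq and Glra3.

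Gad2, a synthesis gene, had the smallest p of diet among the members. In the following, CPM of CD mice are given as lowest, median and highest, and CPM of FD mice in the order female 1, male 1, female 2, male 2 and female 3. Gad2 had 199, 217.5 and 242 CPM in CD mice and 228, 238, 238, 229.8 and 223 CPM in FD mice. The FD mice lay close together inside the wider range of the CD mice, whose lowest values were those of female 3 and female 1. The log2 difference was 0.08 ± 0.05 (SE), with a 95% interval of -0.03 to 0.19, and 0.05 without the 3 libraries. Gad1 had 379, 398 and 418 CPM in CD mice and 406, 419, 407, 401.5 and 417 CPM in FD mice. Its FD values filled the upper part of the CD range, and the log2 difference was 0.04 ± 0.04. Slc32a1 (VGAT), which loads both GABA and glycine into vesicles, had 48.9, 56.2 and 63.8 CPM in CD mice and 62.8, 54.3, 50.6, 43.1 and 69.4 CPM in FD mice. Both the lowest and the highest mouse were FD mice, and the log2 difference was -0.01 ± 0.10.

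No transporter or breakdown gene passed the test. Slc6a11 had 148.5, 163 and 182 CPM in CD mice and 175, 164, 164, 149.7 and 173 CPM in FD mice, with a difference of 0.02 ± 0.06 on the log2 scale. All FD values lay within the CD range. Abat had 309.6 CPM ± 15.6 (SD, n = 6) in CD and 315 ± 8.94 (n = 5) in FD mice. Slc6a9 had 25.3 CPM ± 1.85 in CD and 25.8 ± 1.44 in FD mice. For both genes the difference between the means was smaller than the SD of either group.

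Of the GABA-A receptor subunits, the beta subunits varied most among those with at least 10 counts in every mouse. Gabrb1, a beta subunit, had 37.6, 69.0 and 74.3 CPM in CD mice and 71.5, 75.6, 74.2, 71.55 and 52.3 CPM in FD mice. The low values were those of CD female 3, CD female 1 and FD female 3, and the other 8 mice lay between 67.5 and 75.6 CPM. With 2 of the 3 low mice in the CD group, the log2 difference was 0.17 ± 0.15 (SE), and it was 0.05 without these 3 libraries. Gabrb2, the beta subunit of most synaptic receptors, had 126, 196 and 216 CPM in CD mice and 186, 202, 186, 182 and 141 CPM in FD mice. The same 3 libraries were lowest. Its log2 difference was 0.01 ± 0.13 with all mice and -0.0956 without the 3 libraries, so that its direction was not determined.

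Of the gamma subunits, Gabrg1 had 20.6, 28.2 and 28.9 CPM in CD mice and 27.5, 29.4, 27.5, 31.3 and 28.0 CPM in FD mice. One mouse, CD female 3, was lower than all others, and the log2 difference was 0.0953 ± 0.08 with all mice, 0.03 without CD female 3 and 0.05 without the 3 libraries. Gabrg3 had 30.8 CPM ± 2.97 (SD) in CD and 30.2 ± 1.82 in FD mice. Gabrd had 25.35, 29.1 and 35.6 CPM in CD mice and 27.2, 24.9, 26.95, 25.45 and 33.8 CPM in FD mice. The highest were CD female 1 and FD female 3, the groups overlapped, and the log2 difference was -0.08 ± 0.09.

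No alpha subunit passed the test. Gabra5 had 237, 254 and 269.6 CPM in CD mice and 228, 251, 248, 252 and 286 CPM in FD mice, with both extremes in FD females and a log2 difference of -0.0044 ± 0.06. Gabra4, a partner of the delta subunit in dentate granule cells, had 149.7 CPM ± 7.002 in CD and 150.1 ± 8.46 in FD mice. Gabra2 had 151 CPM ± 16.0 in CD and 154 ± 8.26 in FD mice, and Gabra3 had 84.85 ± 11.7 and 83.1 ± 6.755. For these 3 genes the means of the diets were closer together than the SD of either group. Gabra4 and Gabrb1 overlap by 196 bases on opposite strands of chromosome 5, and without a statement on the strand in counting, reads from this stretch cannot be told apart.

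For the GABA-B receptor, Gabbr1 had 784, 816 and 864 CPM in CD mice and 796, 807.5, 793, 771 and 849 CPM in FD mice. Gabbr2 had 375, 406 and 413 CPM in CD mice and 417, 404, 384, 359 and 431 CPM in FD mice. The diets overlapped for both subunits, and the lowest and highest values of Gabbr2 were those of FD mice. The log2 differences were -0.04 ± 0.05 for Gabbr1 and -0.01 ± 0.05 for Gabbr2.

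Among glycine receptor genes, Glrb had 221, 231.5 and 241 CPM in CD mice and 218, 224, 229.5, 238 and 225 CPM in FD mice. Gphn, whose product holds both glycine and GABA-A receptors at synapses, had 99.1, 103 and 112 CPM in CD mice and 96.7, 106, 105, 103 and 109 CPM in FD mice. Both were among the steadiest members, with coefficients of variation over 11 mice of 3.14% for Glrb and 4.50% for Gphn, compared with 20.6% for Gabrb1 and 17.7% for Gabrb2. Glra2, the alpha subunit of the immature brain, had 9.69, 10.97 and 14.2 CPM in CD mice and 11.5, 10.2, 11.8, 10.9 and 12.4 CPM in FD mice. CD female 1 was highest, and the log2 difference was 0.01 ± 0.0951. Glra3 had 1.905 CPM ± 0.322 in CD and 1.84 ± 0.582 in FD mice.

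Neither chloride transporter passed the test, with opposite signs of the differences. Slc12a5 had 549, 590.3 and 612 CPM in CD mice and 600.3, 576, 553, 500.0 and 576 CPM in FD mice. FD male 2 was lowest, and the other FD mice lay within the CD range. Slc12a2 had 81.1, 86.9 and 95.9 CPM in CD mice and 90.15, 92.0, 86.3, 101 and 90.2 CPM in FD mice. Here the same mouse, FD male 2, was highest. The log2 differences were -0.06 ± 0.05 (SE) for Slc12a5 and 0.06 ± 0.06 for Slc12a2, and -0.07 and 0.08 without the 3 libraries. Without FD male 2 they were -0.02 and 0.03.

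To remove library size, 6 ratios of member pairs were formed within each mouse as log2 ratios of counts. None passed the test between the diets (exact two-sided permutation tests over 462 splits, adjusted over 6 ratios). The ratio of Slc12a5 to Slc12a2 was 2.73 ± 0.158 (SD) in CD and 2.61 ± 0.171 in FD mice, a difference of -0.12 (exact permutation p = 0.2424, adjusted p = 0.6364). It was lowest in FD male 2 (2.31), without which the difference was -0.0495, and highest in CD female 1 (2.90). Per kilobase of exon KCC2 had 9.44 ± 1.06 (SD, n = 11) times the level of NKCC1, and per kilobase of coding length 6.82 times. The ratio of Gad1 to Gad2 was 0.87 ± 0.102 in CD and 0.83 ± 0.050 in FD mice (exact permutation p = 0.4416). Its 3 highest values, 1.03, 0.946 and 0.91, were those of the 3 libraries, and the other 8 mice lay between 0.76 and 0.85. For the remaining ratios the diets differed by -0.02 (Gabbr1 to Gabbr2), -0.07 (Gabrd to Gabra5), 0.02 (Gphn to Glrb) and -0.02 (Slc6a11 to Gad1), each with an adjusted exact permutation p of 0.6364.

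**Figure D3:**
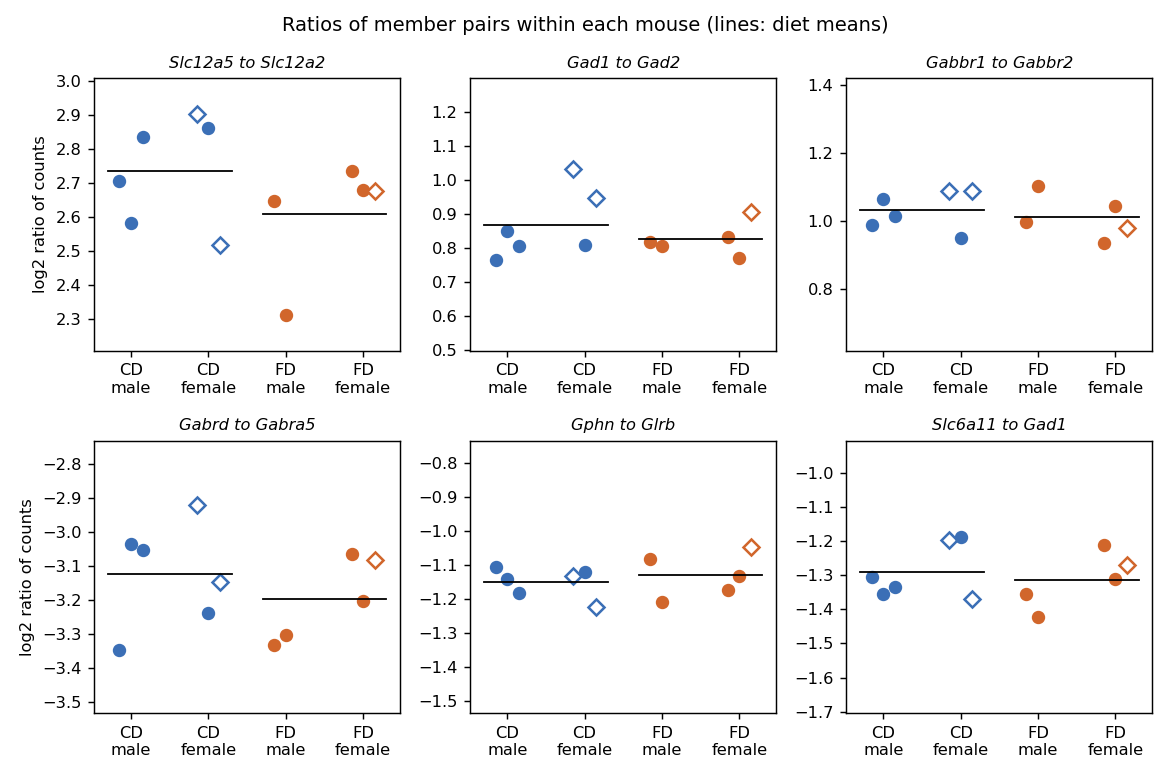
Log2 ratios of counts for 6 pairs of members in each mouse, by diet and sex, each panel spanning 0.8 log2 units, with lines for the mean of 6 CD and of 5 FD mice and open diamonds for the 3 libraries with over 15% of multiply aligned reads. The diets overlap in every panel, and the open diamonds are the 3 highest points for Gad1 to Gad2.

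Differences between mice followed the 3 libraries for several members. The 3 libraries and the other 8 did not overlap for 7 of the 26 members, compared with 16.1% of all genes. As the libraries were set apart by a measure of the reads over all genes, these values are a description. Lower in the 3 libraries were Gabrb1 at 44.8 CPM ± 7.36 (SD, n = 3) against 72.1 ± 2.57 (n = 8), Gabrb2 at 132 ± 7.805 against 196 ± 11.65, Gabra2 at 136 ± 7.48 against 159 ± 7.31 and Gabrg3 at 27.1 ± 0.604 against 31.8 ± 1.19. Higher were Slc32a1 at 65.6 CPM ± 3.335 against 52.8 ± 6.05 and Gabbr1 at 859 ± 8.72 against 797 ± 15.6. Glra1 was listed at 0 in these 3 mice and had 1 to 5 counts in the others. The lower 4 are GABA-A receptor subunits with 6360 to 13838 bases of exon. Of the higher 2, Slc32a1 has 2797 bases and Gabbr1 has 7764, which is more than Gabrb2 (6360) and Gabra2 (7640). The part of exon length in these values was not tested. In whole tissue, fewer cells of a type and less RNA per cell cannot be told apart. Gabra4, which neighbours Gabrb1, had 153 CPM ± 4.50 in the 3 libraries and 149 ± 7.95 in the other 8, and their ranges overlapped.

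**Figure D4:**
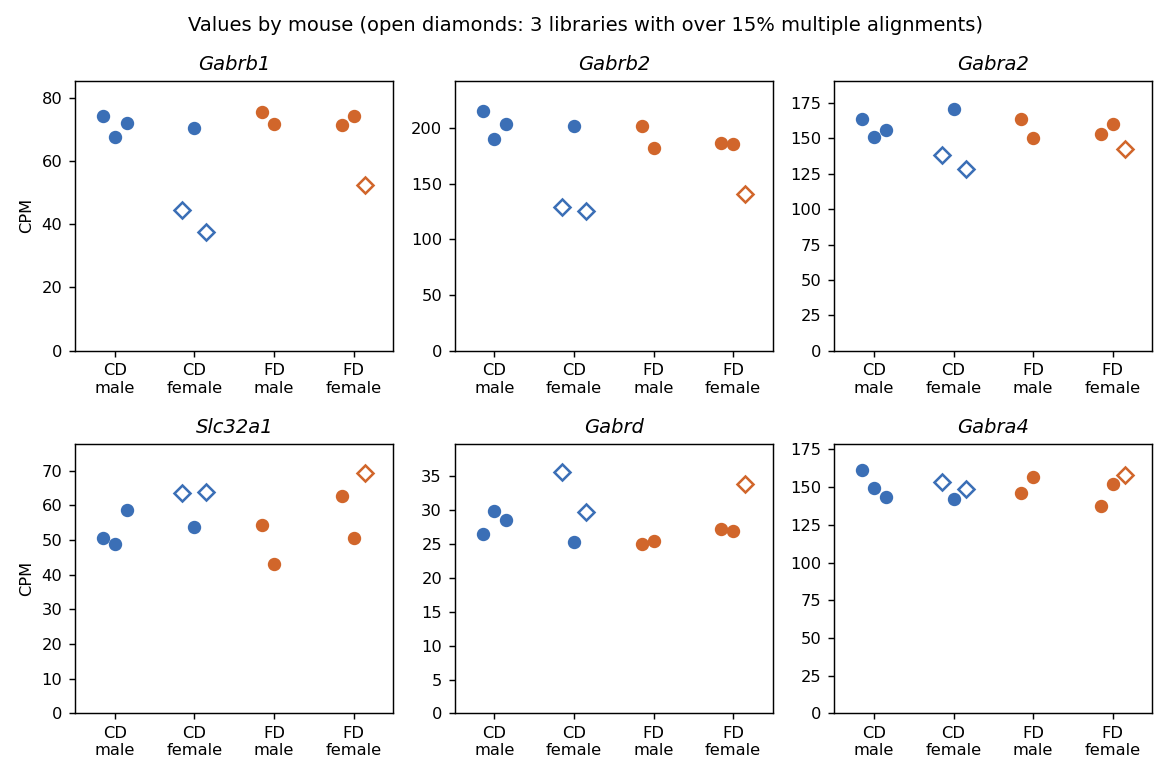
CPM of 6 members in each of 11 mice by diet and sex, with axes from 0 and open diamonds for the 3 libraries with over 15% of multiply aligned reads. The diamonds are lowest for Gabrb1, Gabrb2 and Gabra2, highest for Slc32a1, and among the other mice for Gabra4.

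No member passed the test between the sexes, although many other genes did. With diet as a covariate, 1257 of 20589 genes differed between females and males (6.11%, 624 higher and 633 lower in females, edgeR adjusted p under 0.1), and 0 members were called. At an unadjusted p under 0.05 there were 4 members of 26, against 20.3% of all genes. The sexes overlapped in CPM for all 26 members, while 1.78% of all genes did not overlap. DESeq2 called 1 member, Slc32a1, and 2043 genes over all.

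The 4 were Slc32a1, Gabrb2, Gabrb1 and Glra2. Slc32a1 had 60.6 CPM ± 7.075 (SD, n = 6) in females and 51.1 ± 5.85 (n = 5) in males, a log2 difference of 0.25 ± 0.08 (SE, edgeR adjusted p = 0.107). Gabrb2 had 162 CPM ± 33.4 in females and 199 ± 13.1 in males, a difference of -0.31 ± 0.11 (edgeR adjusted p = 0.118). Gabrb1 had 58.45 CPM ± 15.7 in females and 72.2 ± 3.13 in males, a difference of -0.35 ± 0.12 (edgeR adjusted p = 0.125). Spread among females was several times that among males for both beta subunits, with 3 females low and 3 near the level of the males. Without the 3 libraries, the difference was -0.03 for Gabrb2, -0.02 for Gabrb1 and 0.14 for Slc32a1. Glra2 had 11.95 CPM ± 1.28 in females and 10.55 ± 0.579 in males, a difference of 0.19 ± 0.08 (edgeR adjusted p = 0.206), and 0.12 without the 3 libraries.

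Gad2 and Gabrd were near these. Gad2 had a sex difference of -0.0983 (log2) (edgeR adjusted p = 0.2497), and -0.04 without the 3 libraries. Gabrd had a difference of 0.16 ± 0.08 (edgeR adjusted p = 0.279) and 0.001 without them. Over all genes, 13 were past the threshold between the sexes without the 3 libraries, 12 of them among the 1257. The count of members depended on single mice. It was 4 without CD female 2 (Gabrb2, Gabrd, Gabrb1 and Slc32a1) and 3 without FD female 2, the same mice whose removal raised the count over all genes to 3244 and 2762, and it was 0 without any of the other 9, with 18 to 590 genes called. With all 11 mice and the 3 libraries as a term of the fit, the sex difference was -0.04 for Gabrb1, -0.05 for Gabrb2, 0.125 for Slc32a1 and -0.01 for Gabrd, and 11 genes were called over all.

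**Figure D5:**
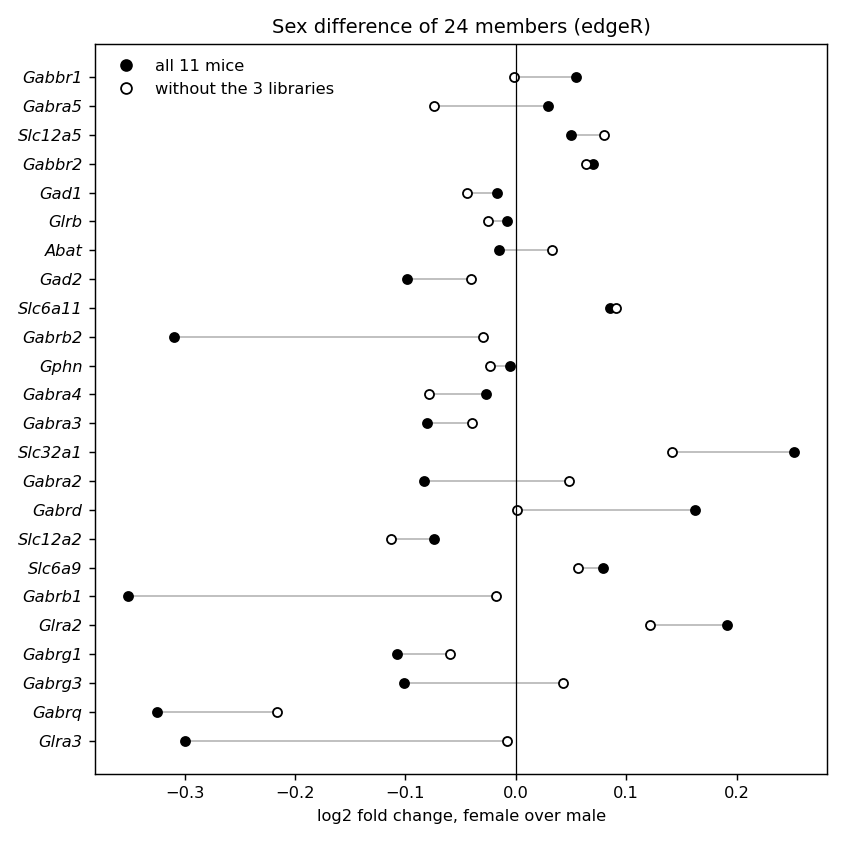
Log2 fold change of females over males from edgeR with diet as a covariate, for 24 members ordered by level, with filled points for all 11 mice and open points for the 8 mice without the 3 libraries. Gabrb1 and Gabrb2 move from -0.35 and -0.31 to near 0, and Gabrd from 0.16 to 0.001.

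Interneuron genes were examined beside Slc32a1, as interneurons are the cells that use GABA. Of 18 such genes, 2 were higher and 1 was lower in females, beside 6.11% of all genes called. Npy was higher by 0.48 ± 0.09 (log2, edgeR adjusted p = 0.0342), Sst by 0.29 ± 0.07 (edgeR adjusted p = 0.0714), and Erbb4 had a difference of -0.28 ± 0.08 (edgeR adjusted p = 0.0811). These genes also differed in level between the 3 libraries and the other 8, with 66.1 and 45.65 CPM for Npy, 157 and 126 CPM for Sst, and 87.0 and 119 CPM for Erbb4. The summed level of the list was 673 to 720.2 CPM in the 3 libraries and 602 to 688 CPM in the other 8. With diet, none of the 18 was called, beside 0.068% of all genes. The sums of 602 to 694 CPM in CD and 621 to 720.2 CPM in FD mice overlapped.

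No member differed between the sexes in its diet difference past the threshold. The interaction of diet and sex was past the threshold for 0 of 20589 genes (0%, edgeR), and at an unadjusted p under 0.05 for 0 members, against 1.9% of all genes. The smallest p among members were those of Gabre and Glra1, where few counts were at hand. Gabre had 12, 2 and 6 counts in CD males, 5, 0 and 3 in CD females, 4 and 1 in FD males, and 9, 3 and 7 in FD females. Glra1 had 5, 2 and 4 counts in CD males, 0, 1 and 0 in CD females, 2 and 1 in FD males, and 3, 3 and 0 in FD females. With so few counts, a difference in response was not detectable for either gene.

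Of the 6 ratios, none passed adjustment between the sexes. Slc6a11 to Gad1 was -1.26 ± 0.072 (SD) in females and -1.355 ± 0.043 in males, with an exact permutation p of 0.03896 that did not pass adjustment over 6 ratios (adjusted p = 0.2338). The difference was 0.0972 with all mice, 0.12 without CD female 3, where the ratio passed the adjustment, and 0.12 without the 3 libraries, where it did not. Gad1 to Gad2 was higher by 0.07 in females (exact permutation p = 0.1385), and -0.0041 without the 3 libraries.

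Beyond the 26 members, 76 further genes in 5 lists of the same pathways were counted, of which 72 could be tested. None was called with diet in edgeR, beside 0.068% of all genes. Against 2.59% of all genes, 1 of the 72 had an unadjusted p under 0.05. This was Plcl2, which is related to a phospholipase C and binds GABA-A receptor-associated proteins, at -0.14 ± 0.05 (log2, FD over CD, edgeR adjusted p = 1.0). Insyn1, a protein of inhibitory postsynapses, followed in the list of 23 tested GABA-A receptor partners at -0.11 ± 0.09. In the list of 11 tested GABA-B receptor partners the smallest p were those of Kctd12b, at 0.17 ± 0.12, and of Kcnj9, a subunit of the potassium channel opened by the receptor, at -0.07 ± 0.06. None of these 4 values passed the test over all genes.

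Among 16 tested genes of uptake, supply and breakdown, Aldh9a1, an aldehyde dehydrogenase that can form GABA from putrescine, had -0.09 ± 0.05 and Slc6a5, the neuronal glycine transporter, had 0.95 ± 0.67 at 0.178 CPM. Of 17 regulators of chloride, the kinases Wnk1 and Wnk3 had 0.09 ± 0.06 and 0.09 ± 0.08. Of 5 further receptor subunits, Glra4 had -0.74 ± 0.46 and Gabra6, the alpha subunit of cerebellar granule cells, 1.32 ± 0.88, both with at most 7 counts in a mouse. The median diet difference of the 5 lists, in the order given here, was -0.02, 0.0048, 0.01, 0.02 and -0.28, the last from genes with few counts. Between the sexes, 3 of the 72 were higher in females (Insyn1, Slc38a3 and Akr7a5) and 3 lower (Kcnj6, Slc38a2 and Wnk3), a share near the 6.11% of all genes. Kcnj6, another subunit of the channel opened by GABA-B receptors, differed by -0.37 ± 0.11 (edgeR adjusted p = 0.0903), with 33.85 CPM in the 3 libraries and 52.0 CPM in the other 8. The mean levels in the 3 libraries and in the other 8 were 133 and 111 CPM for Insyn1, 74.1 and 65.5 CPM for Slc38a3, and 16.5 and 13.5 CPM for Akr7a5. They were 110.0 and 133.5 CPM for Slc38a2 and 44.2 and 54.2 CPM for Wnk3.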

How the data were processed

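Hippocampal RNA of 11 F1 mice was sequenced as 50 bp single-end reads. The authors aligned the reads with STAR to GRCm38, counted reads with a single alignment per gene (featureCounts is named, though the summary lines have another counter's form; the annotation release and the use of strand are not given in the sources used here), and deposited raw counts per mouse. Reads with several alignments are absent from the counts. Gene names came from GENCODE M21, in which 94.9% of the identifiers were found.

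Counts were tested in R 4.3.3 with the edgeR 4.0.16 quasi-likelihood test and TMM normalization, for genes with at least 10 counts over all mice, with Benjamini-Hochberg adjustment over all genes and a threshold of 0.1. Diet was compared without covariates, sex with diet as a covariate, and the interaction in a model with both. A standard error is the fold change divided by the square root of F. CPM are scaled by TMM. Ratios used counts plus 0.5 and exact permutation tests. DESeq2 1.42.0, other filters and scalings, each sex or diet alone, the replicate block and each mouse left out were alternatives. With diet removed, mice of the same sex and number correlated at 0.18 to 0.51 in all 5 pairs. With sex removed too, these pairs correlated at -0.08 to 0.37. Mice of the same sex and different number correlated at -0.29 (CD female 1 with FD female 2) to 0.52 (CD female 1 with FD female 3) with diet removed. The 3 libraries that stood apart are all female, so that shared sex and these libraries cannot be told apart in these correlations. A high correlation did not need a shared number. The paired fit is given beside the main one. The scripts were tested on simulated counts. Replicate libraries differed by more than sampling noise. Litters are not given, so p-values measure the spread between these mice.

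The members and lists were chosen with earlier results of these data known. Members with the 5 smallest p of diet, 5 of sex and those in the ratios are named with values. These are given for each FD mouse, and as lowest, median and highest for CD mice. The 2 members with the smallest p of the interaction have counts in every mouse. Of each pathway list the 2 genes with the smallest p of diet are named. Values given between the sexes or libraries for Insyn1, Slc38a3, Akr7a5, Kcnj6, Slc38a2, Wnk3, Npy, Sst, Erbb4, Slc1a2, Gfap and Aldoc were chosen after their values were seen. Figures were drawn with matplotlib 3.10.9.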

Additional observations from a re-analysis of the deposited data

Results flagged for a closer look

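In each diet group, every member with counts was screened for a single mouse whose gap to the nearest other mouse was large against the range of its group (Dixon's 95% critical value). Of 52 groups, 6 had such a mouse, and chance alone flags about 1 in 20 groups. In 5 of the 6 the mouse was one of the 3 female libraries with over 15% of multiply aligned reads. Gabrb1 was 52.33 CPM in FD female 3, with the other FD mice between 71.46 and 75.64. Gabrd was 33.79 CPM in the same mouse, with the others between 24.94 and 27.2. Gabrg1 was 20.57 CPM in CD female 3, with the other CD mice between 26.58 and 28.93, and Slc6a9 was 28.96 CPM in that mouse, with the others between 23.92 and 24.99. Glra2 was 14.2 CPM in CD female 1, with the others between 9.691 and 11.26. The exception was Gabbr2 in CD male 2, at 375.1 CPM, with the other CD mice between 402.0 and 412.6. Causes were not tested.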

How the results depend on the processing

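For diet, 0 members were called in edgeR under each alternative tried, with DESeq2 and with each mouse left out, and the median difference of the members stayed between -0.0064 and 0.03 with a mouse left out, while 12 of all genes were called without FD male 2 and 3 to 9 without any of the other 10, instead of 14. Over all genes, DESeq2 called 18. In edgeR, 1 was called with at least 10 counts in every mouse and 1 in females alone. There were 2 in males alone, 4 without the 3 libraries and 22 with them as a term. The replicate block, which pairs mice of the same sex and number, also gave 0 members and a median of 0.0146, with 23 of all genes called. For the interaction, 0 members were called throughout.

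Between the sexes, DESeq2 called 1 member, no count filter gave 3, at least 10 counts in every mouse gave 1, and leaving out a mouse gave 0 to 4. Over all genes, where 1257 were called, DESeq2 called 2043, no count filter gave 2645 and at least 10 counts in every mouse gave 1680. Without the diet covariate 37 were called, and in CD or FD mice alone 5 each. With the 3 libraries left out 13 were called, and with them as a term 11. Leaving out a mouse gave 18 to 3244. Ratios between the sexes passed adjustment in 0 to 1 of 6 cases with a mouse left out. The highest level was 5.048 times the median level per exon length and 5.77 times per coding length.

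Directions turned in these cases. The diet difference of Gabrb2 was -0.0649 in males alone, -0.0956 without the 3 libraries, -0.0416 with them as a term, and -0.069 to 0.0879 with a mouse left out. The sex difference of Gabrd was -0.0108 with the 3 libraries as a term. Without the 3 libraries, the diet difference was 0.0157 for Gabbr1 to Gabbr2 and -0.0121 for Gphn to Glrb, and the sex difference was -0.0041 for Gad1 to Gad2. With a mouse left out, the diet difference of Slc6a11 to Gad1 was -0.0482 to 0.0046 and the sex difference of Gphn to Glrb -0.0141 to 0.0213. The cause was not tested. Of 26 members, 16 changed sign in at least 1 of 21 alternatives for diet and 11 in at least 1 of 20 for sex, so that signs of differences near 0 carry little. Depth limits Gabre, Glra1, Gabrq and Glra3.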

Other observations

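Markers of the cell types and regions that a hippocampal dissection can hold were counted beside the members. With diet, edgeR called 0 genes in each of 12 lists (interneuron, dentate granule cell, CA1 and CA3 pyramidal cell, astrocyte, oligodendrocyte, microglia, endothelial cell, choroid plexus, thalamus and habenula, striatum, and hypothalamus and brainstem), beside 0.068% of all genes. An unadjusted p under 0.05 was found for 2 of 10 choroid plexus genes and 1 of 9 striatum genes, against 2.59% of all genes. Choroid plexus genes summed to 38.8 to 95.2 CPM in CD and 33.0 to 47.75 CPM in FD mice. The highest sum was that of a CD female among the 3 libraries, and the other 8 mice reached at most 66.41 CPM. Striatum genes summed to 171 to 187.5 CPM in CD and 175 to 256 CPM in FD mice. Here the highest sum was that of FD female 3, the only FD mouse among the 3 libraries. The other 8 mice reached at most 192.8 CPM. CA1 genes summed to 631 to 831 CPM, CA3 genes to 473 to 579.9 CPM and thalamus and habenula genes to 162 to 187 CPM over all mice.

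Between the sexes, 6.11% of all genes were called with all mice, and 13 genes over all without the 3 libraries. With all mice, 1 of 12 astrocyte genes was higher and 1 lower in females, and 1 of 10 oligodendrocyte and 2 of 9 microglia genes were higher. Lower were 1 of 7 CA1 genes and 1 of 9 striatum genes. No gene was called in the dentate, CA3, endothelial, choroid plexus, thalamus and habenula, or hypothalamus and brainstem lists. A sex difference in cell types was not tested. Astrocyte genes summed to 5160 to 5564 CPM in the 3 libraries and 5624 to 5950 CPM in the other 8, without overlap. The largest part of this sum was Slc1a2, a glutamate transporter, at 2612 and 3043 CPM, whereas Gfap was at 387 and 347 CPM and Aldoc at 719.5 and 678 CPM. Endothelial genes summed to 167 to 190.4 CPM in the 3 libraries and 199 to 242 CPM in the others, also without overlap. Oligodendrocyte genes summed to 5264 to 6579 CPM and 4077 to 5427 CPM, and microglia genes to 372.5 to 386 CPM and 333 to 376.5 CPM, with overlap. The part of cell composition in the values of the members was not tested.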
